A study of Mus musculus with 6 samples.

Results

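P4-ATPases are flippases, membrane pumps that use ATP to move phospholipids from the outer or luminal leaflet of a membrane to the cytosolic leaflet. Their work keeps phosphatidylserine on the inner side of the plasma membrane of a living cell, helps membranes to bend into vesicles, and is reversed by scramblases when a cell dies or is activated. Mast cells secrete by fusing granules with the plasma membrane, so they are cells with a large traffic of membrane. Most P4-ATPases leave the endoplasmic reticulum only with a CDC50 subunit, encoded by the Tmem30 genes, whereas ATP9A and ATP9B do not need one.

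The 9 flippase genes described here were Atp8a1, Atp8b1, Atp8b2, Atp8b4, Atp8b5, Atp9a, Atp9b, Atp10d and Atp11b, of 15 P4-ATPase genes and 35297 genes in all. They were chosen from lists on which values of these libraries were known, so the strain difference of each of them is given as a description, with no p-value. RNA came from mast cells grown from bone marrow (BMMCs) of wild-type BALB/c or C57BL/6 mice with stem cell factor, TGF-β1, IL-9 and IL-3 and collected on day 20. The cultures of both strains received the same cytokines. BALB/c BMMCs gave libraries S9, S10 and S11, and C57BL/6 BMMCs gave S12, S13 and S14 (n = 3 per strain). The study calls the libraries of a strain biological replicates, and whether they came from separate mice was not stated, so an error given here is the spread between these libraries. In RNA of whole cultures, fewer cells with a transcript and less transcript per cell cannot be told apart.

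Between 28273312 and 37100759 reads per library were assigned to genes, and edgeR's common coefficient of variation between replicates was 0.0665. The mast cell genes fixed for this check had a summed level between 34883 and 39366 TPM, and all 10 passed the filter on low counts. Of these, 2 were called higher in C57BL/6 BMMCs, the tryptase gene Tpsb2 (log2 fold change 2.32) and Hdc (1.19), while the chymase gene Cma1 was lower there (-0.43, adjusted p = 0.00107, edgeR). Genes of other cells were in part at 0 and in part expressed. Macrophage genes C1qa, C1qb, C1qc and Csf1r had 0 TPM in the 6 libraries, and the summed level of 8 neutrophil genes did not exceed 0.263 TPM. The basophil genes Cd200r3 and Mcpt8 reached 345 and 353 TPM, and Ncr1 of the T or NK cell list had 4.23 to 6.26 TPM. Some genes of these lists differed with strain. Of 8 basophil genes 4 were called higher in C57BL/6 BMMCs, against 7.73% of all tested genes, while Il18r1 was lower there (-0.54 on the log2 scale, adjusted p = 0.00415, edgeR). The summed level of that list was 515 to 530 TPM in BALB/c and 640 to 668 TPM in C57BL/6 BMMCs, of which Mcpt8 made up 172 to 185 and 329 to 353 TPM. Cd200r3 had 339 ± 5.20 TPM (BALB/c) and 286 ± 4.60 TPM (C57BL/6), and its log2 fold change of -0.07 in counts did not pass the test. The macrophage list summed to 0.937 to 1.77 TPM in BALB/c and 8.34 to 9.72 TPM in C57BL/6, from Adgre1 and Cd68. The erythroid list summed to 0.758 to 1.39 and 16.8 to 17.2 TPM. That difference came from Hbb-bt alone, which had 0 reads in every BALB/c library. In the erythroid list Hba-a1 (1.06 and 0.350 TPM on average) and Alas2 (0.0747 and 0.0139 TPM) had the higher values in BALB/c, on few reads. Whether these values reflect other cells in the cultures was not tested, nor was the part of such cells in the flippase differences.

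All 9 reading frames held the motif DKTGT, whose aspartate takes up the phosphate of ATP in each pumping cycle, as in other P-type ATPases. The coding bases of this site are shown for 7 of the genes so that members can be compared at the catalytic centre. Each window is 45 bases of the GENCODE transcript on GRCm39, in the direction of transcription, and capitals mark the 5 codons of DKTGT.
Atp8a1, chr5:67918498-67918542, minus strand, exon 15 of 38: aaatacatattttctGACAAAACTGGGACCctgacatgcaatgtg
Atp8b2, chr3:89857156-89857200, minus strand, exon 13 of 28: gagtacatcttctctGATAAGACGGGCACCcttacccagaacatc
Atp8b4, chr2:126239548-126239592, minus strand, exon 13 of 28: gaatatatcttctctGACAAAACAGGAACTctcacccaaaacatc
Atp8b5, chr4:43342561-43342605, plus strand, exon 14 of 29: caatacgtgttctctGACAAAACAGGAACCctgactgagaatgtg
Atp9a, chromosome 2, minus strand, across an exon junction: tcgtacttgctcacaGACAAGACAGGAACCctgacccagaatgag
Atp10d, chr5:72404549-72404593, plus strand, exon 9 of 23: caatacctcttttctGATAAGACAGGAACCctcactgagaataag
Atp11b, chr3:35863509-35863553, plus strand, exon 13 of 30: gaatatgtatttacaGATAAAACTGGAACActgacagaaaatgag

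Translation of the frames gave proteins that differed widely outside this site. The closest pair was Atp9a and Atp9b, with 73.1% identical residues after global alignment, followed by Atp8b2 and Atp8b4 with 69.0%. Atp8b5 was closest to Atp8b2, at 58.2%, and the most distant pair of the 9, Atp8b1 and Atp9b, shared 30.2%. The DGET motif of the actuator domain, which removes the phosphate, was found in the frames of 8 genes and its exact letters were not found in Atp10d. The PISL motif of the fourth membrane helix was found in 8 and not in Atp9b. Frames ran from 1168 codons in Atp9a to 1251 in Atp8b1, except that of Atp10d.

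The frame of Atp10d was open for 816 codons and then met a stop codon, TAA, at chr5:72421814-72421816 in exon 12 of 23, on the plus strand of GRCm39. Beyond it the same frame was open for a further 652 codons. The phosphorylation site lay before the stop, at codon 491, and GDGANDV, a motif of the P domain that closes the ATP site, lay after it, at codon 1105. GENCODE types this transcript as a loss-of-function protein-coding transcript. The reference genome is that of a C57BL/6J mouse, and the base sequence of the BALB/c gene was not analysed here. The stop is shown because the gene also differed in level between the strains, in 63 bases of chr5:72421784-72421846 with the stop codon in capitals.
Atp10d, plus strand: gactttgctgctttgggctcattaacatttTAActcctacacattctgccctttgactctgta

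**Figure D1:**
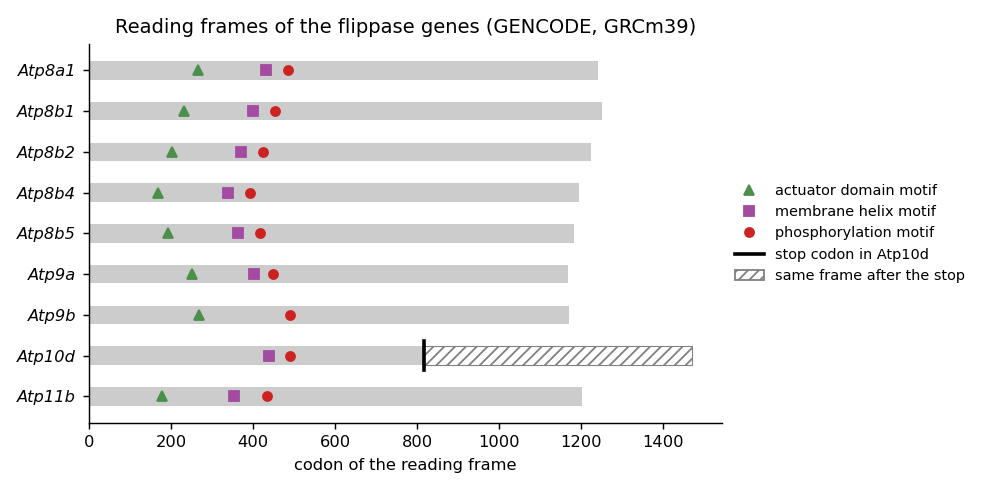
Reading frames of the 9 flippase genes as bars, in codons from the start codon, with the position of 3 motifs of P4-ATPases as symbols. The frame of Atp10d stops after 816 codons, and the hatched bar is the same frame beyond that stop.

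The 9 genes lie on 5 chromosomes of GRCm39, in the GENCODE annotation, where each is typed as a protein-coding gene. Atp8a1 is at chr5:67775481-68004883 on the minus strand and Atp10d on the same chromosome at chr5:72360672-72456118 on the plus strand. Atp8b2 lies at chr3:89846786-89870815 (minus) and Atp11b at chr3:35808205-35910427 (plus). Atp8b4 is at chr2:126162893-126342594 and Atp9a at chr2:168476168-168584329, both on the minus strand. Atp8b5 is at chr4:43267135-43373833 on the plus strand. Atp8b1 and Atp9b are both on chromosome 18, at 64662038 to 64794338 and at 80777265 to 80977316, both on the minus strand.

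Levels can be compared between genes as TPM, which is an estimated count per length of transcript, scaled so that libraries have equal totals. In both strains the leading flippase genes were Atp8b2 and Atp11b. In BALB/c BMMCs, Atp8b2 had 42.1 ± 2.64 TPM (SD, n = 3) and Atp11b 41.7 ± 1.49 TPM, and the ranges of the pair overlapped. In C57BL/6 BMMCs, Atp8b2 had 49.4 ± 1.67 TPM and lay above Atp11b (41.6 ± 1.33 TPM) in each library. The pair held 66.0% ± 0.732 of the summed TPM of the 9 genes in BALB/c and 61.8% ± 0.614 in C57BL/6 BMMCs.

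The order below the leading pair differed between the strains. In BALB/c BMMCs, Atp9b (15.8 ± 2.82 TPM) and Atp8a1 (14.7 ± 1.81 TPM) followed with overlapping ranges. Below them came Atp8b4 (6.68 ± 0.717), Atp10d (4.80 ± 0.614), Atp9a (0.789 ± 0.312), Atp8b1 (0.339 ± 0.0362) and Atp8b5, each separated from the next gene in the order. In C57BL/6 BMMCs, Atp8b5 came next with 23.1 ± 1.51 TPM, ahead of Atp9b (16.5 ± 1.30) and Atp8a1 (9.32 ± 0.247). Atp8b4 (3.78 ± 0.292), Atp9a (2.44 ± 0.751), Atp10d (1.03 ± 0.158) and Atp8b1 (0.0237 ± 0.0300) followed, and no neighbours in that order overlapped.

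**Figure D2:**
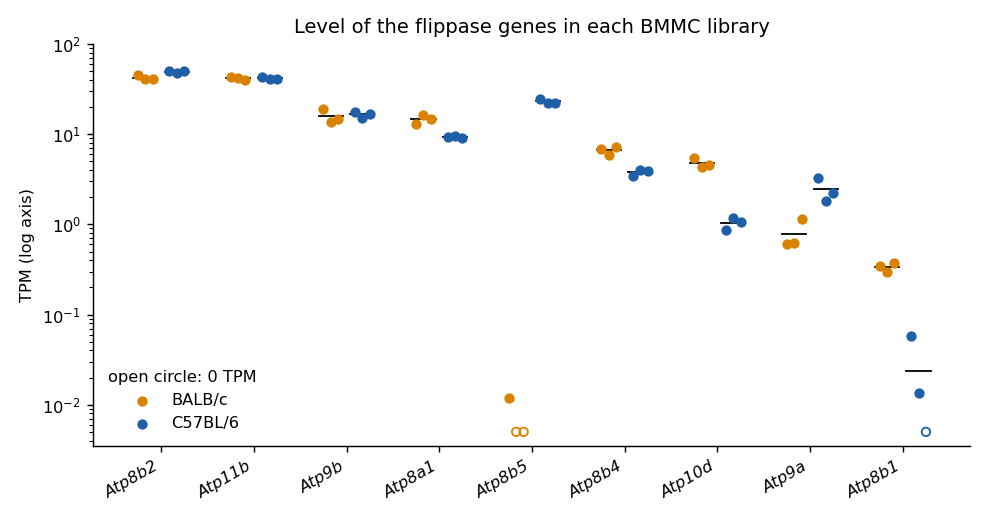
TPM of each flippase gene (log axis) in the 3 BALB/c and 3 C57BL/6 libraries, 1 point per library, with the mean as a line and open circles for libraries at 0. Atp8b2 and Atp11b led in both strains, and Atp8b5 had 22.2 to 24.8 TPM in C57BL/6 BMMCs and 0.0120 TPM or less in BALB/c BMMCs.

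The summed TPM of the 9 genes was 134, 123 and 124 in S9, S10 and S11 and 153, 142 and 146 in S12, S13 and S14. The strains did not overlap in this sum. Without Atp8b5 it was 127 ± 5.65 TPM in BALB/c and 124 ± 4.24 TPM in C57BL/6 BMMCs, and the strains overlapped. Atp8b5 made up 15.7% ± 0.514 of the summed TPM in C57BL/6 BMMCs.

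Between strains, genes were compared with edgeR on estimated counts, and a gene was called different when its adjusted p was under 0.05 and its fold change above 2. Of the 9 flippase genes, all of which passed the filter on low counts, 2 were called higher in C57BL/6 (Atp8b5 and Atp9a) and 2 higher in BALB/c BMMCs (Atp8b1 and Atp10d). Of all 12461 genes tested, 7.73% were called with the higher level in C57BL/6 and 5.54% with the higher level in BALB/c, 13.3% in total. With the adjusted p alone, 8 of the 9 and 52.9% of all tested genes passed. The CPM of the strains did not overlap for 8 of the 9 and for 61.9% of all tested genes. Because the genes were chosen on this contrast, nothing is read from their counts. The median log2 fold change, C57BL/6 over BALB/c, was 0.17 for the 9 genes and -0.01 for all tested genes, and the median absolute value was 0.66 and 0.24.

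**Figure D3:**
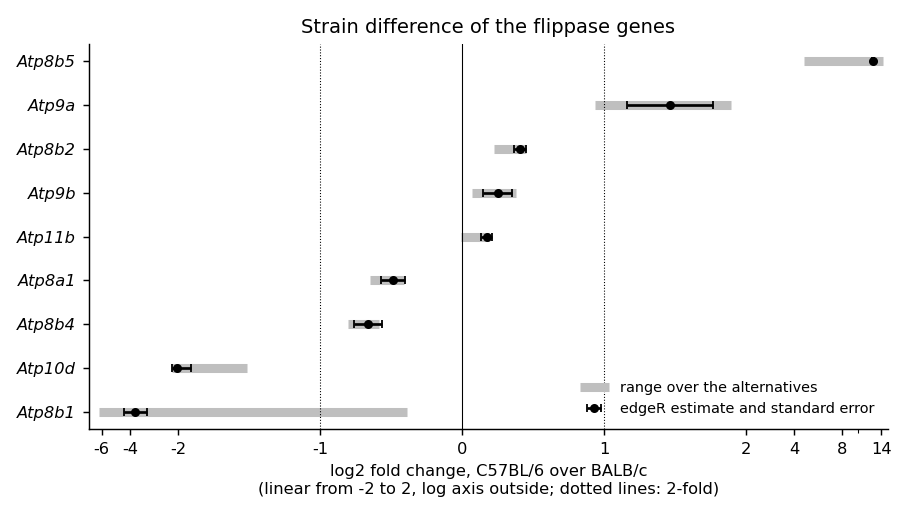
Log2 fold change of each flippase gene, C57BL/6 over BALB/c, with a standard error derived from the test statistic. In grey is the range over the alternative analyses. The standard error drawn for Atp8b5 understates its uncertainty, because BALB/c BMMCs gave 1 read of the gene. Atp8b5 lay at 12.47 and Atp8b1 at -3.74, and the grey range of Atp11b reached just below 0.

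Atp8b5, also known as FetA, is a flippase described mainly in the testis, where it is found in the developing acrosome. It had 1, 0 and 0 reads per BALB/c library and 2673, 2122 and 2694 per C57BL/6 library. The gene was thus at the detection limit in BALB/c BMMCs and among the more abundant flippase genes in C57BL/6 BMMCs, with no overlap. The reads scaled to a common library size (CPM, corrected with TMM) were 79.4 ± 3.86 (SD, n = 3) in C57BL/6. Summed over libraries, 7489 reads stood against 1 read, a ratio of 7872 per corrected library size with an exact 95% interval of 1412 to 310964 that covers counting error only. The fitted log2 fold change was 12.47 and rests on the single read of S9. It was 14.33 when that library was left out. The SE of 0.17, derived from the test statistic, understates the uncertainty that the exact interval shows.

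Nearly all Atp8b5 reads of C57BL/6 BMMCs were on the curated RefSeq transcript of 4474 bases, with 98.8%, 98.2% and 98.9% in S12, S13 and S14. The single BALB/c read was on a predicted transcript of 3935 bases. Of the 4468 words of 31 bases in the GENCODE transcript, 0 occurred in a transcript of another gene. The flippase gene most like it in sequence, Atp8b2, is described below and was well detected in both strains.

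The RefSeq promoter table (GRCm38.p6) held 6 of the 9 genes, with 10 promoters. That of Atp8b5 is shown because BALB/c BMMCs gave a single read of the gene. It spans chr4:43266909-43267208 on the plus strand, and capitals mark the 50 bases after the annotated start.
Atp8b5 promoter, plus strand: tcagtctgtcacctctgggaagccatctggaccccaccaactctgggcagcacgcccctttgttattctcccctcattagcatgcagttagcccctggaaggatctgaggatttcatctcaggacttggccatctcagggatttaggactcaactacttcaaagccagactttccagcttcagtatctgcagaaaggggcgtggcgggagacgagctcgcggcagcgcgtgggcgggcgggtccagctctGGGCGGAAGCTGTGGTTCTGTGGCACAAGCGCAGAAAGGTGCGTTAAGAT
This window had 57% G or C and 13 CpG dinucleotides, against medians of 53.0% and 7 over 32544 promoters. On either strand it lacked AGATAA, a form of the GATA motif that 11.2% of all promoters held. The other form searched, TGATAA, was absent too and stood in 8.91%. The E-box CACGTG (7.17%) was not found, nor was the TATA box TATAAA (13.6%).

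The tested genes on both sides of Atp8b5 were also higher in C57BL/6 BMMCs. This measure was not used to choose the flippase genes, but the comparison was made after the values of Atp8b5 were seen. Unc13b, a gene for a vesicle-priming protein, ends 2250 bases before the start of Atp8b5. Its CPM was 13.8 ± 1.65 (BALB/c) and 36.0 ± 0.617 (C57BL/6) (log2 fold change 1.39, SE 0.08, adjusted p = 1.2e-06, edgeR). Rusc2, which begins 8146 bases after the end of Atp8b5, had 21.2 ± 2.41 and 96.0 ± 6.20 CPM (2.18, SE 0.08, adjusted p = 7.22e-08, edgeR). All 3 genes are on the plus strand. Within 500 kb on either side, 21 other genes were tested, 3 were called higher in C57BL/6, namely Unc13b, Rusc2 and the natriuretic peptide receptor gene Npr2 (1.39, SE 0.30, adjusted p = 0.00397, edgeR), and the median log2 fold change was 0.10. Of the 18 nearest tested neighbours of the 9 flippase genes 3 were called, these being Unc13b, Rusc2 and Hdc beside Atp8b4, against 13.3% of all tested genes.

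**Figure D4:**
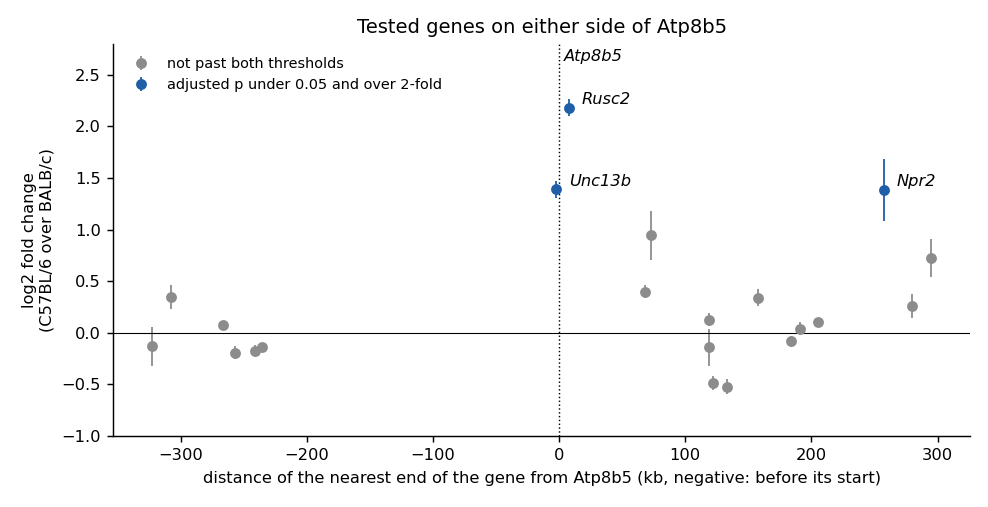
Log2 fold change, C57BL/6 over BALB/c, with its standard error for the 21 tested genes within 500 kb of Atp8b5, against their distance from it in kb. Unc13b (1.39) and Rusc2 (2.18) flank the gene. The genes farther out lie between -0.19 and 0.34 on the left, and between -0.53 (Car9) and 1.39 (Npr2) on the right.

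The genes with the CPM pattern most like that of Atp8b5 over the 6 libraries were Adgra1, Rnaset2b and Trim12a, with root mean square differences of 0.63, 0.64 and 0.65 on the log2(CPM + 1) scale. Adgra1 had 0 CPM in the BALB/c libraries and 43.4 ± 5.95 CPM in C57BL/6, Rnaset2b 82.8 ± 2.18 CPM and Trim12a 42.1 ± 3.14 CPM in C57BL/6.

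The other ATP8B genes moved in both directions. Atp8b1, whose human counterpart is mutated in a hereditary cholestasis, had 48, 36 and 63 reads per BALB/c library and 9, 1 and 0 per C57BL/6 library. These are low counts, yet every BALB/c library lay above every C57BL/6 library. Summed reads of 147 and 10 gave a ratio of 13.98 in favour of BALB/c (exact 95% interval 7.39 to 29.8, counting error only). The fitted log2 fold change was -3.74 (SE 0.62), and leaving out S12, which held 9 of the 10 reads, moved it to -6.20.

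Atp8b2, a flippase of phosphatidylcholine at the plasma membrane, had 5306, 4494 and 5822 reads per BALB/c library and 6687, 5581 and 7466 per C57BL/6 library. Corrected for library size this was 157 ± 8.24 CPM and 209 ± 2.35 CPM, with no overlap and a log2 fold change of 0.41 (SE 0.04). Atp8b4, its closest relative in sequence here, went the other way. It had 809, 654 and 1032 reads per BALB/c library and 449, 450 and 591 per C57BL/6 library, that is 24.9 ± 2.79 and 15.8 ± 1.51 CPM, with a log2 fold change of -0.66 (SE 0.10). A curated transcript of 5693 bases took 13.1%, 9.996% and 1.596% of the Atp8b4 reads in the BALB/c libraries and 0 in the C57BL/6 libraries. The main transcript, of 5529 bases, held 85.7% to 96.5% in BALB/c and 94.97% to 99.5% in C57BL/6, and these ranges overlapped.

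Atp8a1, a phosphatidylserine flippase of endosomes and the plasma membrane, was higher in BALB/c BMMCs. It had 2032, 2463 and 2868 reads per BALB/c library and 1651, 1513 and 1823 per C57BL/6 library. In CPM the strains did not overlap, at 74.3 ± 9.57 in BALB/c and 53.0 ± 2.51 in C57BL/6, and the log2 fold change was -0.49 (SE 0.09). Its reads were split over a predicted transcript of 7004 bases (46.8% to 62.3% over the 6 libraries), the curated transcript of 8131 bases (20.8% to 27.2%) and a predicted transcript of 7128 bases (13.9% to 32.4%), and none of the 3 shares separated the strains.

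The ATP9 genes encode flippases of the endosomes and the trans-Golgi network. Atp9a had 44, 34 and 95 reads per BALB/c library and 199, 98 and 151 per C57BL/6 library. BALB/c library S11 came close to C57BL/6 library S13 in reads, but in CPM the strains did not overlap, with 1.68 ± 0.741 in BALB/c and 4.71 ± 1.36 in C57BL/6. The log2 fold change was 1.46 (SE 0.30) and ranged from 1.21 to 1.90 when a library was left out.

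The split of Atp9a reads over annotated transcripts differed between libraries. A predicted transcript of 2593 bases took 99.1% of the reads in S12 and every read in S13 and S14, and 0, 68.7% and 22.1% in S9, S10 and S11. Most other BALB/c reads were on a curated transcript of 3469 bases, with 43.9, 10.6 and 66.1 estimated reads, where the C57BL/6 libraries had 0. With curated transcripts alone the direction of Atp9a therefore turned, to 0.528 ± 0.343 TPM in BALB/c and 0.00631 ± 0.0109 TPM in C57BL/6 BMMCs. Both strains had few reads of this gene, and the 3 BALB/c libraries did not share a main transcript.

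**Figure D5:**
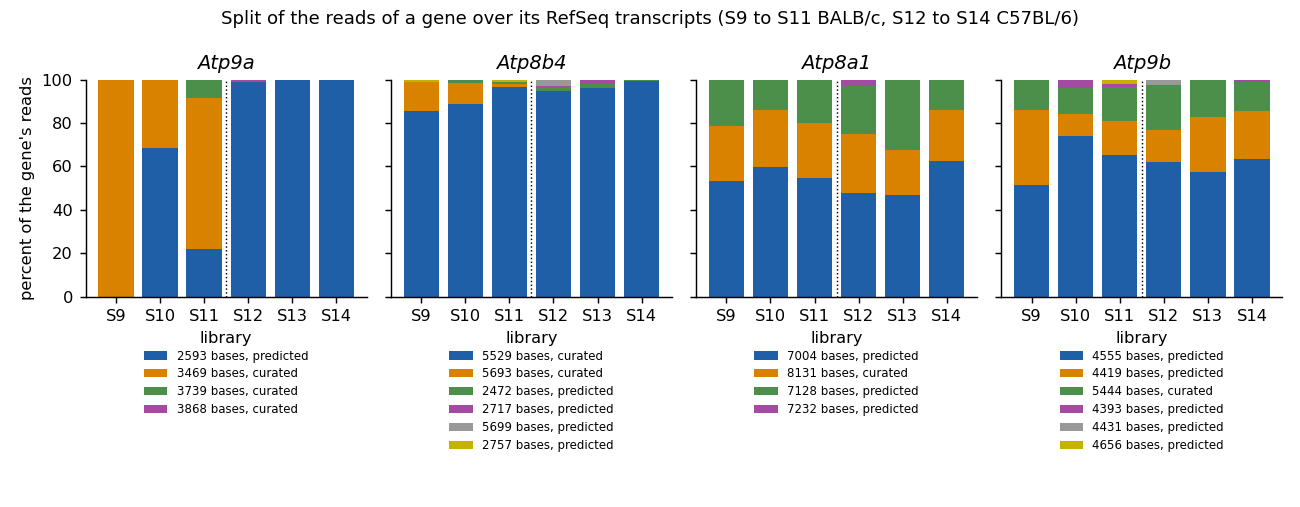
Share of the reads of Atp9a, Atp8b4, Atp8a1 and Atp9b on each RefSeq transcript with reads, in percent, for each library, with transcripts named by length and as curated or predicted. For Atp9a the 2593-base predicted transcript holds at least 99.1% in each C57BL/6 library and 0 to 68.7% in BALB/c BMMCs, while the Atp8a1 and Atp9b shares overlap between the strains for every transcript named in the text.

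Atp9b is the closest relative of Atp9a in sequence here. It had 1870, 1271 and 1803 reads per BALB/c library and 2011, 1513 and 2075 per C57BL/6 library. The values overlapped, at 49.8 ± 8.20 and 59.2 ± 3.54 CPM, and the log2 fold change was 0.25 (SE 0.10). A predicted transcript of 4555 bases held 51.6% to 73.9% of its reads over the 6 libraries. Another predicted transcript, of 4419 bases, held 10.5% to 34.6%, and the curated transcript of 5444 bases 11.9% to 20.6%.

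Atp10d, a flippase of glucosylceramide, had 716, 532 and 731 reads per BALB/c library and 126, 153 and 175 per C57BL/6 library. Every BALB/c library lay well above every C57BL/6 library. CPM was 19.9 ± 2.36 in BALB/c and 4.85 ± 0.860 in C57BL/6, a log2 fold change of -2.04 (SE 0.14), which ranged from -2.16 to -1.92 when a library was left out. All reads of the gene were on 1 RefSeq transcript of 6048 bases, a non-coding record, and 1 of 6019 words of the GENCODE transcript was shared with another gene, Atp10a. The gene thus gave fewer reads in C57BL/6, the strain of the reference genome in which the stop codon shown above was read. Whether the BALB/c gene carries the stop was not analysed, and whether the stop bears on the level was not tested.

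Atp11b, a phosphatidylserine flippase of endosomes and the Golgi, had the smallest fitted difference of the 9 genes. It had 4562, 4159 and 5173 reads per BALB/c library and 5119, 4290 and 5479 per C57BL/6 library. CPM was 140.1 ± 2.88 and 158 ± 2.78 with no overlap and a log2 fold change of 0.17 (SE 0.04), whereas in TPM the strains overlapped and the difference on the log2(TPM + 1) scale was -0.01. A curated transcript of 4958 bases held 92.8% to 98.5% of its reads.

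Among the 6 other P4-ATPase genes, 5 had reads and 4 were tested. Atp10a, a phosphatidylcholine flippase of the plasma membrane in the same subfamily as Atp10d, was called higher in C57BL/6 BMMCs, the direction opposite to Atp10d. Its reads were 904, 504 and 603 per BALB/c library and 1958, 1750 and 2497 per C57BL/6 library, with no overlap (log2 fold change 1.68, SE 0.18, adjusted p = 5.74e-05, edgeR). Atp11a, a phosphatidylserine flippase of the plasma membrane, was higher in C57BL/6 by 0.41 (SE 0.08, adjusted p = 0.00198, edgeR). Atp8a2 differed by -0.16 (SE 0.17) and did not pass the test. Atp8b3 had 7, 2 and 3 reads per BALB/c library and 0, 1 and 0 per C57BL/6 library, too few to be tested, and Atp10b had 0 reads. Summed over all 15 P4-ATPase genes the level was 147 ± 9.23 TPM in BALB/c and 177 ± 5.98 TPM in C57BL/6 BMMCs.

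The CDC50 subunit of these cells was Tmem30a, with 76.1 to 83.0 TPM in BALB/c and 85.5 to 88.9 TPM in C57BL/6 BMMCs. The C57BL/6 level was higher, with a log2 fold change of 0.29 (SE 0.05, adjusted p = 0.000907, edgeR). Tmem30c had at most 4 reads in a library and Tmem30b had 0.

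Partners of the ATP9 flippases and of the retromer, the complex that returns cargo from endosomes, were all expressed, and 8 of 8 were tested. The adjusted p was passed by 4 of the 8, a share near the 52.9% of all tested genes, each by less than 2-fold. Higher in C57BL/6 BMMCs were Dop1b (0.48), Mon2 (0.23) and the retromer subunit gene Vps35 (0.14). The retromer subunit gene Vps26a was lower (-0.16, SE 0.04, adjusted p = 0.00676, edgeR). Dop1a (-0.14), Arl1 (0.09), Snx3 (-0.08) and Vps29 (-0.02) did not pass. The median of the list was 0.03.

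Scramblases let phospholipids cross the membrane in both directions and so undo the work of flippases. Of 19 genes listed, 16 had reads and 10 were tested. Ano3 was called higher in C57BL/6 BMMCs, with 102, 48 and 143 reads per BALB/c library and 295, 178 and 267 per C57BL/6 library (log2 fold change 1.42, SE 0.26, adjusted p = 0.00144, edgeR). In all, 5 of the 10 passed the adjusted p, a share near the 52.9% of all tested genes, and these 5 were higher in C57BL/6, a direction in which 3361 of the 12461 tested genes passed. The median of the list was 0.17. The most abundant, Plscr1 (340 TPM over all libraries), was higher by 0.69 (SE 0.08, adjusted p = 7.43e-05, edgeR) and Vmp1 of the endoplasmic reticulum by 0.23 (SE 0.04, adjusted p = 0.00189, edgeR), while Atg9a differed by 0.11 (SE 0.05) and did not pass. Named after their values were seen, the scramblases that expose phosphatidylserine after calcium entry and in dying cells, Ano6 (0.03, SE 0.04) and Xkr8 (0.10, SE 0.16), did not pass either.

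ABC transporters that carry lipids outward were tested for 6 of 7 genes. Abcg1, a sterol exporter, was higher in C57BL/6 BMMCs by 0.9956 on the log2 scale (SE 0.05, adjusted p = 2.64e-07, edgeR), just under the 2-fold threshold. Abcc1 was higher by 0.83 (SE 0.04, adjusted p = 7.01e-07, edgeR) and Abca7 by 0.21 (SE 0.05, adjusted p = 0.005, edgeR). Abcb1a was lower (-0.72, SE 0.12, adjusted p = 0.000744, edgeR). Abcb1b (-0.12) and Abca1, with at most 33 reads in a library (-0.97, SE 0.38), did not pass, and Abcb4 had at most 4 reads.

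Phosphatidylserine is made by the synthases Ptdss1 and Ptdss2 and turned into phosphatidylethanolamine by Pisd. Ptdss1 was higher in C57BL/6 BMMCs by 0.31 (SE 0.04, adjusted p = 0.000120, edgeR) and Pisd by 0.33 (SE 0.06, adjusted p = 0.000887, edgeR), while Ptdss2 (-0.12, SE 0.08) did not pass. Of 12 genes that recognise exposed phosphatidylserine, 6 were tested. The scavenger receptor gene Stab2 was called higher in BALB/c BMMCs, with 370, 452 and 444 reads against 83, 55 and 71 (-2.53, SE 0.15, adjusted p = 1.39e-06, edgeR). Mfge8, a bridging protein, was higher in C57BL/6 (0.61, SE 0.07, adjusted p = 8.37e-05, edgeR), and Havcr2 (0.01) and Pros1 (0.01) did not pass. Gas6, also named after its values were seen, had at most 36 reads in a library (-1.36, SE 0.53) and did not pass. Of the 6 tested, 3 passed the adjusted p, against 52.9% of all tested genes, the third being the receptor gene Tyro3, named after its values were seen, which was lower in C57BL/6 (-0.94, SE 0.18, adjusted p = 0.00219, edgeR).

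The other P-type ATPases, which include pumps of ions and of polyamines, were listed to place the flippases in their superfamily. Of 22 genes 13 were tested. Atp2b4, a calcium pump of the plasma membrane, had 718, 389 and 380 reads per BALB/c library and 2126, 2090 and 2756 per C57BL/6 library (2.29, SE 0.23, adjusted p = 3.30e-05, edgeR). Atp13a4 had 1463, 1491 and 2208 reads per BALB/c library and 509, 419 and 472 per C57BL/6 library (-1.79, SE 0.10, adjusted p = 1.01e-06, edgeR). The calcium pump gene Atp2a1 (-1.59, SE 0.28, adjusted p = 0.00119, edgeR) had at most 83 reads in a library. Among the abundant pumps were those of the endoplasmic reticulum, Atp2a3 (205 TPM, -0.08, SE 0.04, which did not pass) and Atp2a2 (110 TPM, -0.32, adjusted p = 0.000109, edgeR). The median of the list was -0.10.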

How the data were processed

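The authors made strand-specific mRNA libraries, sequenced them paired-end, checked reads with FastQC 0.11.5 and assigned them to transcripts with Salmon 0.8.2. The deposited tables hold the estimated count and the TPM of 129698 RefSeq transcripts per library, whereas the methods name Ensembl transcripts of GRCm39, so the transcript set behind the values is known from the tables only. Both strains were read against 1 transcript set, and how sequence differences between strains bear on assignment was not tested. Accessions without version were matched to symbols through RefSeq's GRCm38.p6 table (106440 matched, while 2.69% to 3.12% of reads were on unmatched ones, not used here). Estimated counts were added up by gene, rounded, and compared with edgeR 4.0.16 (R 4.3.3), quasi-likelihood test, TMM factors (0.940 to 1.05), filterByExpr at 10 counts, and Benjamini-Hochberg adjustment over 12461 genes. The SE of an edgeR log2 fold change is its absolute value divided by the square root of the F statistic of the test. With 3 against 3 libraries an exact permutation test cannot go below p = 0.1. On simulated data with 200 genes changed 4-fold edgeR recovered 193 with 1 false call. The simulation followed the dispersion trend and held only 4-fold changes. It therefore does not speak for calls near 2-fold or for genes such as Atp8b5 and Atp8b1. Replicates differed by more than counting noise (chi-square per degree of freedom 6.60 to 13.6).

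Sequences, positions and frames came from GENCODE vM39 on GRCm39, and motifs, identity and shared words were computed from its transcripts. Alternatives were DESeq2 1.42.0, a transcript length offset, DESeq2 size factors, upper-quartile and plain library sizes, other filters, limma 3.58.1 on log2 TPM with 1 or 0.1 added, curated transcripts alone and each library left out. Named were all 9 flippase genes, list genes past both thresholds, every gene with reads in lists of up to 8, the 3 most abundant of longer lists, and the 3 genes most like Atp8b5. A few list genes under this rule are not reported here. The members and lists were chosen with earlier results of these data known.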

Additional observations from a re-analysis of the deposited data

How the results depend on the processing

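Of the 9 flippase genes 4 were called different under DESeq2, every other scaling, no filter, a length offset, limma on log2(TPM + 0.1) and with each library left out. They were 2 with at least 10 counts in every library, which removes Atp8b1 and Atp8b5 from the test, and 2 with limma on log2(TPM + 1), where Atp8b1 (-0.39) and Atp9a (0.94) fell under 2-fold. Under the same settings the calls over all tested genes went from 1653 of 12461 (13.3%) to 1017 of 11341 (8.97%) and 799 of 12461 (6.41%). With the adjusted p alone 8 of the 9 flippase genes passed, against 52.9% of all tested genes. On the other lists, with the cell type marker lists left out, 7 of 53 tested genes were called (13.2%). This number ranged from 7 to 10 when a library was left out, and was 8 with DESeq2 and 10 with plain library size. In the main test of the marker lists, 2 of 10 tested mast cell genes, 4 of 8 basophil genes and 2 of 2 macrophage genes were called. The erythroid list had 1 of 1 called and the T or NK cell list 0 of 1. The sign of the log2 fold change of 8 flippase genes held under every alternative test, scaling, filter and left-out library, and Atp11b went to -0.01 under both limma fits. The median over all genes shifted by -0.14 with plain library size and by -0.14 and -0.17 with the limma fits, and relative to that shift Atp11b stayed above the median gene. The fitted value of Atp8b5 was between 4.58 and 14.33 and that of Atp8b1 between -6.20 and -0.39. The lower size of each range came from limma on log2(TPM + 1). With curated transcripts alone Atp8a1 fell to 3.37 TPM in BALB/c and 1.99 in C57BL/6 BMMCs, Atp9b to 1.87 and 2.43, and Atp9a turned, to 0.528 and 0.00631. No paired analysis was possible because the libraries of the strains share no replicate number. Depth limits what can be said of Atp8b1, Atp9a and the BALB/c level of Atp8b5.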

Other observations

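Genes within 500 kb of the other flippase genes were counted in the same way as those around Atp8b5, after the values were seen. Around Atp8b2, 21 genes were tested and 1 was called, higher in BALB/c BMMCs. Around Atp8b4, 8 were tested and 1 was called, Hdc, the histidine decarboxylase gene that makes histamine, which was higher in C57BL/6 (log2 fold change 1.19, SE 0.19, adjusted p = 0.000735, edgeR). Around Atp9b, 4 were tested and 1 was called, higher in BALB/c. Around Atp8b1, Atp8a1 and Atp11b, 2, 3 and 4 genes were tested, with no gene past both thresholds. Around Atp9a and Atp10d, 6 and 4 genes were tested, again with no gene past both thresholds, and their log2 fold changes lay between -0.23 and 0.40 and between -0.17 and 0.96. Of all tested genes 13.3% were called.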
